A study of Mus musculus with 34 samples.

Results

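Cxcl9, Cxcl10 and Cxcl11 lie next to each other on mouse chromosome 5, and AP-1 binding around them was read from ChIP-seq peak lists of thioglycollate-elicited macrophages (TGEMs), primary cells that are recruited to the peritoneum by an irritant and flushed out. Every peak whose midpoint fell in the body of a member gene or within 20 kb of it was taken, with genes from GENCODE M21 on mm10. Where peaks from several lists shared 1 bp or more, they were counted as 1 element. The joined window spanned 84.1 kb, chr5:92301347-92385485, and held 161 of the 596383 peaks in all lists, at 16 of the 93024 elements in the genome. The elements were numbered along the chromosome from 1 to 16, and 24 of the 30 lists had a peak in the window.

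The lists came from 34 ChIP-seq samples of male mice, of which 4 were inputs without a list analysed here. TGEMs of the strains labelled C57Bl/6EiJ (C57Bl/6J in the study's text) and Balb/cJ were taken at 8 weeks of age and treated for 1 h with PBS (Veh) or with Kdo2 lipid A (KLA), a TLR4 agonist, at 100 ng/mL. TGEMs labelled PPARgKO, on a C57Bl6 background by their titles, were treated with Veh. The labels give neither their age nor the knockout allele, and the knockout label was not checked here, since no PPARg list of knockout cells was analysed. The AP-1 monomers were ATF3, Jun (labelled cJun), JunD, Fos, FosL2 (labelled Fra2) and JunB in C57BL/6, the same without FosL2 in BALB/cJ, and ATF3, Jun and JunD in PPARgKO. PU.1 and CEBPa lists were from C57BL/6 with both treatments, and the PPARg list was from C57BL/6 with Veh.

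Replicate experiments had been combined by the authors into 1 list per condition, so there are no replicates and no test between conditions. Each peak has a count of reads that was not scaled to library size. A count was therefore given with its rank or percentile within its own list, where 100 is the highest count. The sum of counts ranged from 203 to 13809143 over the 29 lists that held peaks. The BALB/cJ Fos Veh list was empty and the BALB/cJ JunB Veh list held 9 peaks. Peaks of PU.1, a lineage factor of macrophages and B cells, and of CEBPa in C57BL/6 Veh lay within 5 kb of 6 of 6 macrophage genes (Spi1, Csf1r, Adgre1, Itgam, Cd68 and Mertk). The T cell genes Cd3e and Cd3g had no PU.1 peak, and 1 of them had a CEBPa peak.

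Cxcl9, Cxcl10 and Cxcl11 encode chemokines that draw activated T cells and NK cells through the receptor CXCR3. They are known as interferon-induced genes, and Cxcl10 is also switched on early by TLR4 through NF-kB and IRF3. AP-1 is a dimer of Jun, Fos and ATF family proteins that binds the TPA response element (TRE) and the cAMP response element (CRE), and in macrophages it shares many sites with PU.1 and C/EBP proteins. In the strain of the reference genome Cxcl11 is annotated by GENCODE as a polymorphic pseudogene.

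The member genes are all on the minus strand. Cxcl9 (ENSMUSG00000029417.9) is at chr5:92321347-92328079, Cxcl10 (ENSMUSG00000034855.13) at chr5:92346638-92348889 and Cxcl11 (ENSMUSG00000060183.6) at chr5:92359544-92365485. Cxcl11 has a second annotated start inside the gene, at position 92363277. Art3, which encodes an ADP-ribosyltransferase family protein, is on the plus strand at chr5:92331827-92414628, so Cxcl10 and Cxcl11 lie within it. The window also overlaps Sdad1 and the annotated non-coding genes and pseudogene Gm43599, Gm23031 and Gm2673.

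The sequences below are those that the results turn on, from the GRCm38 build. They are the 250 bases before the Cxcl9 and Cxcl10 starts, credited to RefSeq (GRCm38.p6), and the central 200 bases of the other elements found in at least 15 lists, as 14.4% of all elements were. Element 8 is represented by the Cxcl10 promoter, which it covers. Of the members, 2 matched an entry of the RefSeq promoter table, and Cxcl11 did not. Capitals mark matches on either strand to TGACTCA (TRE), TGACGTCA (CRE), GAGGAAGT (PU.1), TTGCNNAA (C/EBP), the interferon-stimulated response element (ISRE, GAAA and GAAA with 2 bases between them) or the NF-kB consensus.
Cxcl9 promoter, chr5:92328080-92328329, minus strand: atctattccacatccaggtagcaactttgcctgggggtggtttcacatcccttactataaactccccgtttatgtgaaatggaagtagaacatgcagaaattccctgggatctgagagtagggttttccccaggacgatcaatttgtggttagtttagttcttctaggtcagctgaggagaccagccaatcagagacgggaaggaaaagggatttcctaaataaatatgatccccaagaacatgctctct
Cxcl10 promoter (element 8), chr5:92348890-92349139, minus strand: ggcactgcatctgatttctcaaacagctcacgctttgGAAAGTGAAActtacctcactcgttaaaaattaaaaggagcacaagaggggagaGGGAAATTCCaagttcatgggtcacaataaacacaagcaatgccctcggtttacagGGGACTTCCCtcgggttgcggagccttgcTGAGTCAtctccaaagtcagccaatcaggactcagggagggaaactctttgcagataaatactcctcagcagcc
Element 10, chr5:92353700-92353899, plus strand: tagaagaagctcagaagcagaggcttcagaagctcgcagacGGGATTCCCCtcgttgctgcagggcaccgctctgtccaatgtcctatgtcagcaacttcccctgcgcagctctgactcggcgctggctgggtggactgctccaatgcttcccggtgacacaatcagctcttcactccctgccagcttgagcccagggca
Element 12, chr5:92368499-92368698, plus strand: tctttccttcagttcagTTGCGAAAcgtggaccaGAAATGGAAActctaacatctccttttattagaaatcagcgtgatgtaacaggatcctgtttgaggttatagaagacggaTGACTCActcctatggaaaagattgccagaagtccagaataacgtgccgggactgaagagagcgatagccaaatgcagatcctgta
Element 13, chr5:92369174-92369373, plus strand: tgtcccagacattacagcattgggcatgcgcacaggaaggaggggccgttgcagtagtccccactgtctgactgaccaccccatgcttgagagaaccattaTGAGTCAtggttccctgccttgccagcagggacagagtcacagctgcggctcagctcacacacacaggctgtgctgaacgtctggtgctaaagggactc
Element 14, chr5:92370443-92370642, plus strand: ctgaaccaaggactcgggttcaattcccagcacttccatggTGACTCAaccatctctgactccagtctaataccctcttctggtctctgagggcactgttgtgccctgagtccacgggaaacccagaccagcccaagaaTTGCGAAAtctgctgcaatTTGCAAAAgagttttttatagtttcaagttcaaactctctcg
Element 15, chr5:92374794-92374993, plus strand: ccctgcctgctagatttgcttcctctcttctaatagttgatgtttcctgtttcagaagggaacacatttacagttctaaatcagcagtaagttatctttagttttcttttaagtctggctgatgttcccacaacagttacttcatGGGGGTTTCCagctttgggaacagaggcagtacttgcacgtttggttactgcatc

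The Cxcl10 promoter held 1 ISRE (bases 38 to 47 of the printed sequence), 2 NF-kB matches (bases 92 to 101 and 148 to 157) and 1 TRE (bases 177 to 183, beginning 74 bases before the start). Over 32851 RefSeq promoters of the same length, 4.46% held a TRE, 2.98% an ISRE and 3.90% an NF-kB match. The Cxcl9 promoter held none of the 6 motifs. Elements 12, 13 and 14 each held a TRE, element 12 with a C/EBP match and an ISRE and element 14 with 2 C/EBP matches. Elements 10 and 15 held an NF-kB match and no exact TRE in their central 200 bases, and all 6 AP-1 monomers had a peak there after KLA. With 1 mismatch allowed, element 10 held a TRE and element 15 did not, and 60.5% of all elements held one. In the central 200 bases of all 16 elements, 6 held a TRE (18.8% of all elements in the genome) and 4 an NF-kB match (4.28%). C/EBP matches were in 4 elements (14.5%), ISRE in 2 (3.80%), and the CRE (1.06%) and PU.1 (11.2%) motifs in 0. A match is a description of the letters and not of binding.

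The 3 genes differed in where the peaks lay. Elements of the Cxcl11 window held 124 peaks, those of the Cxcl10 window 90 and those of the Cxcl9 window 38, where the windows overlap and a peak can count for more than 1 gene. Of 21911 protein-coding genes with the same flanks, 5.91% had at least as many peaks as Cxcl11, 10.7% as Cxcl10 and 30.5% as Cxcl9, and the median was 16.0. By number of elements in place of peaks, 19.7%, 27.4% and 32.3% of genes had at least as many as Cxcl11, Cxcl10 and Cxcl9 with 10, 8 and 7. The map of peaks by list shows an element at the Cxcl10 start, a group of elements upstream of Cxcl11 inside Art3 and a pair beside the Art3 start, and no peak of any list within 1 kb of the Cxcl9 start.

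**Figure D1:**
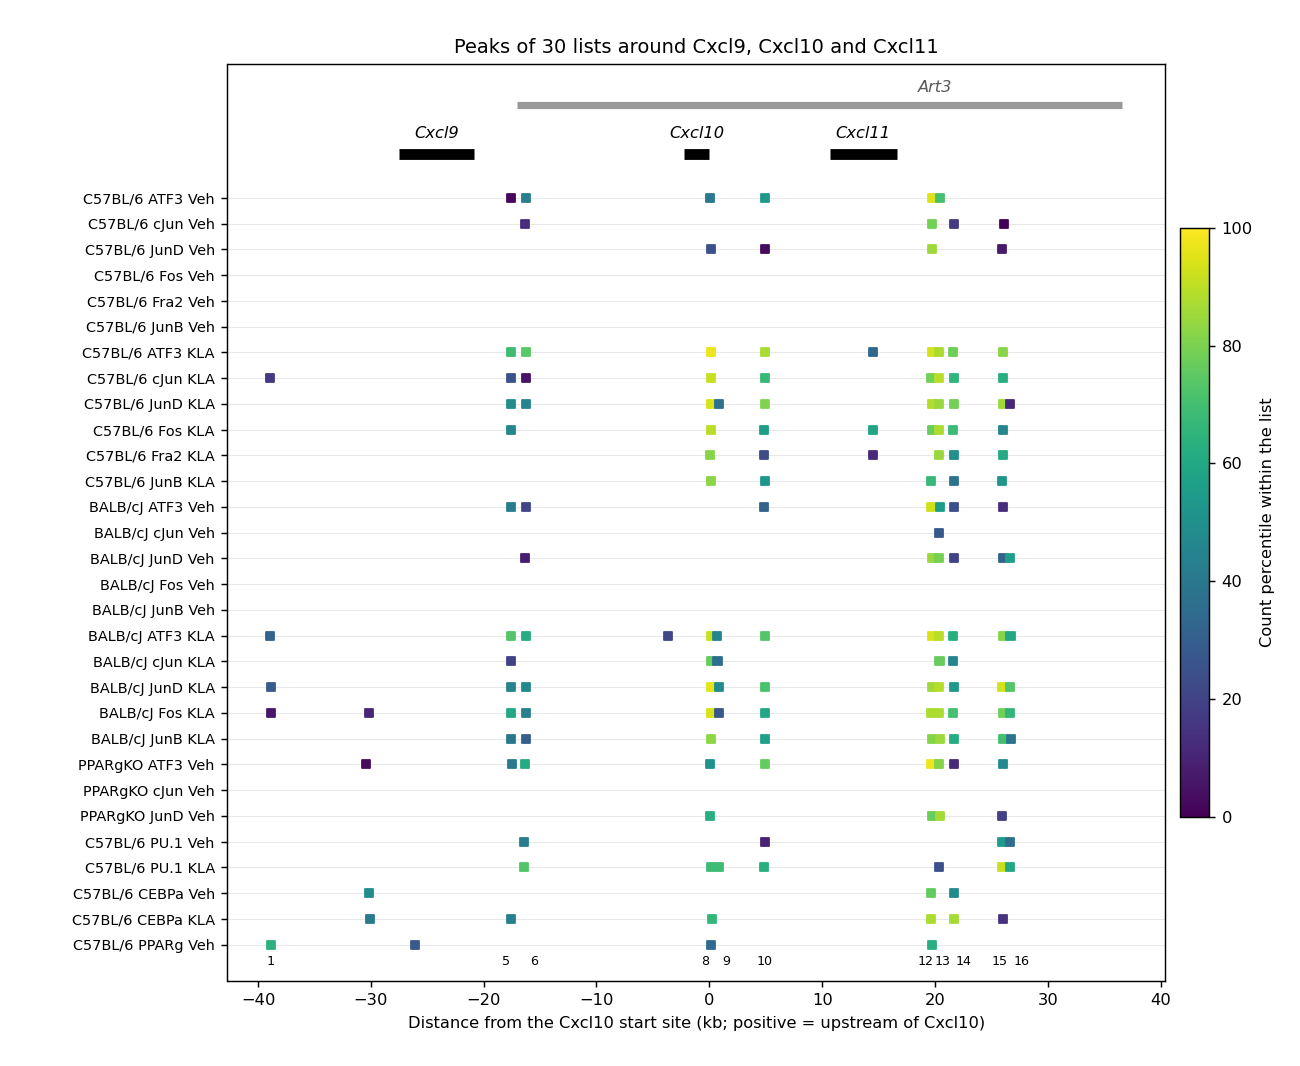
Peaks of the 30 lists (rows) by distance of their midpoint from the Cxcl10 start in kb, where positive is upstream of Cxcl10, coloured by the percentile of the count within the list. Black bars are the member genes, the grey bar is Art3 to the end of the window, and numbers at the foot name the elements found in at least 5 lists. Columns of peaks at 8, 10 and 12 to 15 run through most AP-1 KLA lists. Each of these elements also has a peak in some Veh lists of ATF3, Jun or JunD, while the Fos, FosL2 and JunB Veh lists have no peak.

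At the Cxcl10 promoter AP-1 was found in more lists and at higher ranks after KLA than in Veh. Element 8 (chr5:92348833-92349206) was centred 122 bp before the Cxcl10 start, within an intron of Art3, and had a peak in 18 lists, a breadth of 18 lists or more that was seen at 9.67% of elements. In C57BL/6 Veh only ATF3 and JunD had a peak there, and after KLA all 6 monomers did, which was so for 13.9% of elements with a KLA AP-1 peak in C57BL/6. The ATF3 count was 49 in Veh, rank 13560 of 23160 peaks, and 260 after KLA, rank 1123 of 36745. The JunD count was 38 in Veh, rank 14569 of 19653, and 671 after KLA, rank 1857 of 31640. These are percentiles 40.7 and 96.9 for ATF3 and 24.6 and 94.1 for JunD.

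The other monomers had peaks at the Cxcl10 promoter in KLA lists and none in the C57BL/6 Veh lists. The Jun count was 62 (rank 1442 of 17480), the Fos count 113 (rank 2538 of 24365), the FosL2 count 75 (rank 1892 of 10619) and the JunB count 58 (rank 2271 of 13375). These counts lay at percentiles from 81.8 for FosL2 to 91.5 for Jun. Fos, FosL2 and JunB had short Veh lists of 1804, 5329 and 463 peaks, so that a peak in the KLA list alone was the rule for them (92.8%, 60.0% and 96.6% of their loci). PU.1 had a peak at the promoter only after KLA, with a count of 89 at percentile 68.7, as did CEBPa with a count of 90 at percentile 66.3. PPARg, a nuclear receptor of lipid metabolism, had a Veh peak there with a count of 27 at percentile 34.2.

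Element 9 (chr5:92349429-92349928), 833 bp before the Cxcl10 start, was found in 6 lists. Its only C57BL/6 peaks were JunD KLA, with a count of 228 at percentile 36.9, and PU.1 KLA, with a count of 89 at percentile 68.7. In BALB/cJ it had ATF3, Jun, JunD and Fos peaks, each after KLA, at percentiles from 27.2 to 47.9. Element 10 (chr5:92353565-92353969), 4.91 kb upstream of Cxcl10, was found in 16 lists. There the C57BL/6 ATF3 count went from 59 (percentile 53.4) in Veh to 166 (percentile 86.8) after KLA, and the JunD count from 29 (percentile 2.92) to 469 (percentile 80.6). The other C57BL/6 monomers had a peak only after KLA, from percentile 22.7 for FosL2 to 67.0 for Jun.

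At the inner start of Cxcl11, element 11 (chr5:92363248-92363523) was centred 109 bp upstream, in an exon of the longer Cxcl11 transcript. It had peaks in 3 lists, all C57BL/6 after KLA. The ATF3 count was 57 at percentile 32.6, the Fos count 58 at percentile 59.0 and the FosL2 count 29 at percentile 11.6. Each percentile was below that of the same list at the Cxcl10 promoter, and Jun, JunD and JunB had no peak there.

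Upstream of the outer Cxcl11 start, elements 12, 13, 14, 15 and 16 lay within 10.1 kb and in introns of Art3. Element 12 (chr5:92368394-92368740), 3.11 kb upstream, was among the broadest in the window, with peaks in 19 lists (8.31% of elements had 19 or more), and was strong already in Veh. Its ATF3 count was 167 in C57BL/6 Veh, rank 1211 of 23160, and 215 after KLA, rank 2308 of 36745. The BALB/cJ ATF3 counts were 96 (percentile 92.8) and 147 (percentile 94.2), and the PPARgKO ATF3 count of 126 was rank 660 of 28318, percentile 97.6, the highest percentile in the window. JunD was at percentile 85.2 in C57BL/6 Veh and 88.4 after KLA, and Jun was at percentile 78.6 in both. Fos and JunB had C57BL/6 peaks there only after KLA, at percentiles 77.3 and 67.1. CEBPa had a peak in both treatments, with counts of 119 (percentile 76.4) and 144 (percentile 87.6), and PPARg one with a count of 45 at percentile 62.8, while FosL2 and PU.1 had no peak.

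Element 13 (chr5:92369118-92369422), 3.79 kb upstream, was found in 17 lists, as was element 14 (chr5:92370351-92370725), 5.06 kb upstream. At element 13 the C57BL/6 ATF3 count was 80 (percentile 70.5) in Veh and 171 (percentile 87.7) after KLA. Jun, JunD, Fos and FosL2 had C57BL/6 KLA peaks there between percentiles 84.4 and 89.4, with none in C57BL/6 Veh. JunD did have a Veh peak at element 13 in BALB/cJ (count 75, percentile 79.2) and in PPARgKO (count 77, percentile 86.6). Jun had a Veh peak there in BALB/cJ at percentile 27.0. JunB had no peak at element 13 in C57BL/6, and in BALB/cJ it had one after KLA at percentile 85.0. At element 14 the only C57BL/6 AP-1 peak in Veh was Jun, with a count of 17 at percentile 17.0, and all 6 monomers had a KLA peak, from percentile 38.2 for JunB to 78.8 for JunD. CEBPa at element 14 went from a count of 73 (percentile 47.6) to 139 (percentile 86.4).

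Element 15 (chr5:92374657-92375150) was found in 19 lists. It lay 9.41 kb upstream of Cxcl11 and 2082 bp from an Art3 start at position 92376975, the nearest annotated start. In C57BL/6 Veh its AP-1 peaks were near the bottom of their lists, with a Jun count of 12 at percentile 0.579 and a JunD count of 31 at percentile 6.87. Veh peaks of the other mice ranked higher. JunD was at percentile 31.4 and ATF3 at 12.7 in BALB/cJ, and ATF3 was at 47.0 and JunD at 19.3 in PPARgKO. After KLA in C57BL/6 the Jun count was 36 at percentile 63.0, the JunD count 521 at percentile 85.5 and the ATF3 count 146 at percentile 82.4. PU.1 there went from percentile 54.3 to 91.7, the highest PU.1 percentile in the window, and CEBPa had a KLA peak at percentile 14.8. Element 16 (chr5:92375406-92375725) was 10.1 kb upstream of Cxcl11 and 1425 bp from the same Art3 start. It had PU.1 peaks in both treatments at percentiles 35.5 and 59.6, and in C57BL/6 a single AP-1 peak, JunD after KLA, at percentile 11.7.

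On the Cxcl9 side the peaks lay beside the Art3 start. Element 5 (chr5:92331174-92331483), 3.25 kb upstream of Cxcl9 and 499 bp upstream of the Art3 start, was found in 13 lists. Its ATF3 count in C57BL/6 was 27 in Veh, at percentile 1.61, and 105 after KLA, at percentile 68.7. The other C57BL/6 peaks there were found only after KLA. JunD was at percentile 48.5, Fos at 46.2, CEBPa at 43.0 and Jun at 25.1. Element 6 (chr5:92332319-92332807), 4.55 kb upstream of Cxcl9 in an Art3 intron, was found in 14 lists. It had C57BL/6 ATF3 counts of 50 (percentile 42.1) and 118 (percentile 74.1) and PU.1 peaks at percentiles 41.8 in Veh and 72.9 after KLA. JunD had a C57BL/6 peak at element 6 after KLA at percentile 45.7, and Jun had peaks at percentiles 12.9 in Veh and 5.21 after KLA. Elements 5 and 6 had lower percentiles than the Cxcl10 promoter in every C57BL/6 AP-1 KLA list in which they were found.

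Beyond Cxcl9, element 1 (chr5:92309832-92310142) lay in an exon of Sdad1, 15 bp from an annotated Sdad1 start and 18.1 kb from the Cxcl9 start, and was found in 5 lists: PPARg at percentile 63.9, C57BL/6 Jun KLA at 17.0, and BALB/cJ ATF3, JunD and Fos KLA between 5.98 and 31.8. The remaining elements were in fewer than 5 lists. Element 2 had a peak only in PPARgKO ATF3 (percentile 2.37), element 4, in an exon of Cxcl9, only in PPARg (percentile 27.6), and element 7, in an exon of Art3, only in BALB/cJ ATF3 KLA (percentile 21.3). Element 3 had CEBPa peaks in both treatments (percentiles 48.6 and 40.7) and a BALB/cJ Fos KLA peak (percentile 10.8).

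**Figure D2:**
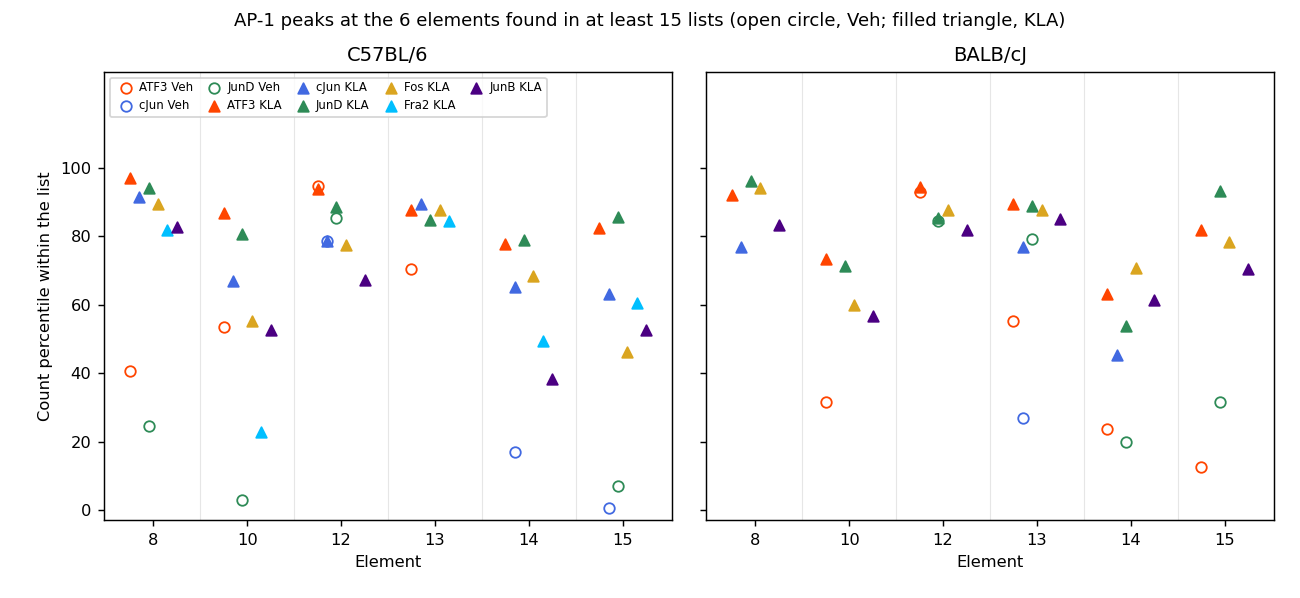
Percentile of the count within its list (vertical axis, 0 to 100) for AP-1 peaks at the 6 elements found in at least 15 lists, in C57BL/6 and BALB/cJ; each point is 1 peak, open circles Veh and filled triangles KLA, coloured by monomer. At element 12 the ATF3, Jun and JunD points of C57BL/6 Veh (78.6 to 94.7) and KLA (78.6 to 93.7) overlap, while at elements 8, 10 and 15 the Veh points of C57BL/6 reach at most 53.4 and its KLA points of ATF3 and JunD at least 80.6; the BALB/cJ KLA points of ATF3 and JunD at element 10 are at 73.4 and 71.3.

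Over the window, the 6 C57BL/6 AP-1 monomers had 14 peaks in Veh and 47 after KLA. The ratio was 3.36 KLA peaks per Veh peak, against 2.04 over the genome. The median percentile was 32.7 in Veh and 68.3 after KLA. Of the 12 elements with a C57BL/6 AP-1 peak, 4 (elements 1, 9, 11 and 16) had one only after KLA, or 33.3%, near the background of 38.0% of all such elements. Among the stronger 50% of each list it was 6 of 9, or 66.7%, against a background of 38.6%. No element had one only in Veh, where the background was 12.9%.

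The same held within each factor. In the 8 pairs of lists with Veh peaks in the window, no element had a peak only in Veh. The share of such loci over the genome was 10.6% with ATF3, 27.3% with Jun, 12.1% with JunD, 21.2% with PU.1 and 21.0% with CEBPa in C57BL/6. In BALB/cJ it was 9.10% with ATF3, 32.6% with Jun and 24.2% with JunD. Peaks only after KLA numbered 3 of 9 for ATF3 (background 43.7%), 5 of 9 for Jun (35.3%), 6 of 10 for JunD (45.4%), 3 of 7 for PU.1 (19.5%) and 3 of 6 for CEBPa (31.2%) in C57BL/6. In BALB/cJ they numbered 5 of 12 for ATF3 (51.8%), 4 of 5 for Jun (34.8%) and 5 of 11 for JunD (35.9%). These counts are small, and the shares were not tested.

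At an element with a peak in both lists, the KLA to Veh ratio of counts was divided by the median of that ratio over all loci shared by both lists. This relative ratio is 1 where an element changed like the typical shared locus, and its 95% interval (Wilson) covers counting error only. Over 8 pairs of lists 35 values were obtained, of which 31 were above 1, 25 had an interval that excluded 1 (background 43.1% of shared loci over these pairs), 12 were at least 2 and 0 were at most 0.5 (background 4.80% of shared loci at most 0.5 over these pairs). Values of at least 2 were found for C57BL/6 ATF3 at 2 of 6 elements (background 6.89% of shared loci), JunD at 3 of 4 (6.43%), Jun at 1 of 4 (5.80%), PU.1 at 2 of 4 (4.00%) and CEBPa at 1 of 3 (4.34%). In BALB/cJ they were found for ATF3 at 1 of 7 (6.88%), JunD at 2 of 6 (9.30%) and Jun at 0 of 1 (5.39%). A value needs a peak in both lists, and no Veh peak of the window was missing from its KLA list. Many Veh counts of the window lay near the lowest of their list. For the values of at least 2, the Veh percentile ranged from 0.579 (Jun at element 15) to 54.3 (PU.1 at element 15). The backgrounds are over all shared loci and were not matched on the Veh count. Whether loci of like Veh count reach 2 as often was not tested.

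The Cxcl10 promoter and element 15 stood highest. At the promoter the relative ratio was 3.44 (2.54 to 4.67) for ATF3, at percentile 99.3 of shared loci, and 3.03 (2.19 to 4.20) for JunD, at percentile 99.1. At element 15 it was 2.89 (2.01 to 4.14) for JunD, 2.67 (1.40 to 5.07) for Jun and 2.53 (2.10 to 3.06) for PU.1 in C57BL/6. In BALB/cJ it was 3.87 (2.63 to 5.71) for JunD and 2.75 (1.70 to 4.44) for ATF3. Element 10 had 2.78 (1.91 to 4.03) for JunD, 2.34 (1.77 to 3.08) for PU.1 and 1.83 (1.36 to 2.45) for ATF3.

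Element 12 did not share in this for the AP-1 monomers with a peak in both lists. In C57BL/6 the relative ratio of ATF3 was 0.835 (0.683 to 1.02), that of Jun 1.05 (0.686 to 1.60) and that of JunD 1.08 (0.866 to 1.35). In BALB/cJ it was 0.945 (0.732 to 1.22) for ATF3 and 1.05 (0.792 to 1.40) for JunD. All 5 AP-1 intervals included 1, and the ATF3 and JunD intervals of C57BL/6 lay below those of the Cxcl10 promoter. CEBPa was at 1.32 (1.03 to 1.68) at element 12 and 2.07 (1.56 to 2.75) at element 14. The remaining values were between 0.883 for CEBPa at element 3 and 2.52 (1.66 to 3.84) for C57BL/6 ATF3 at element 5.

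**Figure D3:**
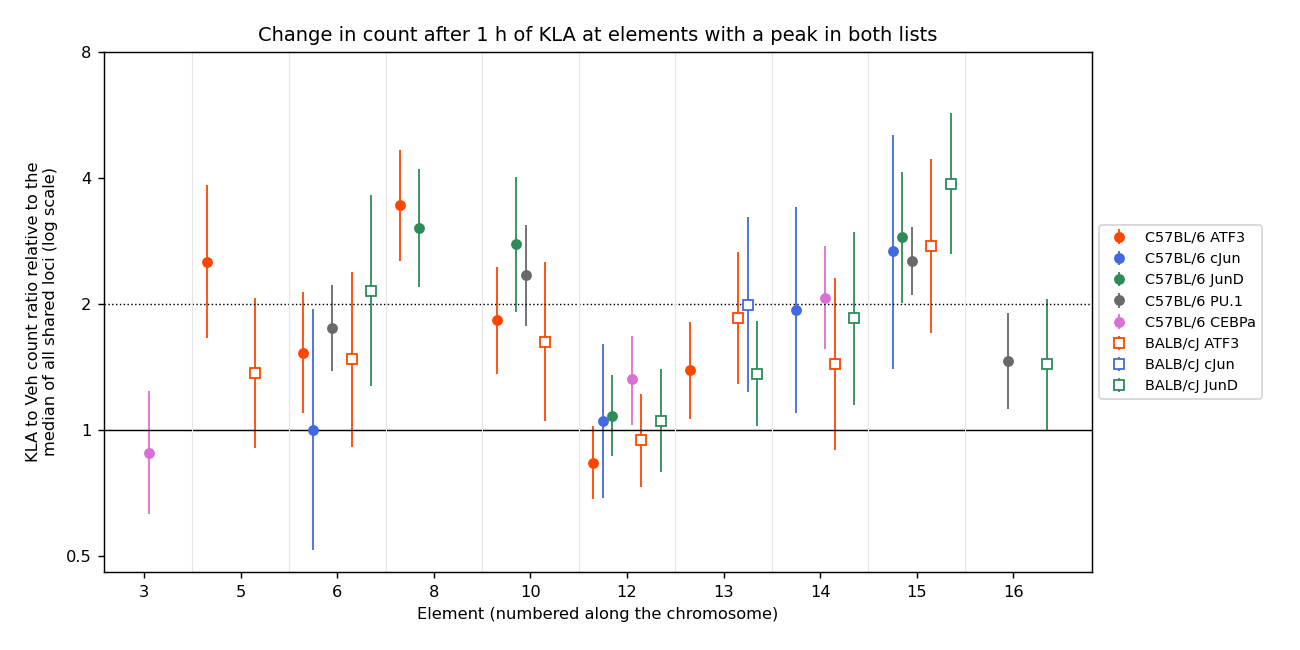
Relative KLA to Veh ratio (log axis; 1 is the median of all loci shared by both lists, the dotted line is 2) at each element with a peak in both lists; points are values, bars 95% counting intervals, filled C57BL/6 and open BALB/cJ. Elements 8 and 15 lie above 2 in every pair, from 2.53 to 3.87, and the AP-1 values of element 12 lie between 0.835 and 1.08.

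Where both strains had a peak, most counts lay within 2-fold of each other on the relative scale. At elements with a peak in both strains, 41 relative BALB/cJ to C57BL/6 ratios were obtained, of which 15 were above 1, 7 had an interval that excluded 1 (background 22.4% of shared loci over these pairs), 1 was at least 2 and 0 were at most 0.5 (background 1.19% and 1.49% of shared loci over these pairs). BALB/cJ reads had been mapped to a genome of that strain and shifted to mm10 positions. The Cxcl10 promoter after KLA gave 0.817 for ATF3, 0.792 for Jun, 1.18 for JunD, 1.05 for Fos and 0.897 for JunB, and each interval included 1. The BALB/cJ percentiles there were 92.0, 76.8, 96.0, 94.0 and 83.2 in the same order. For Jun after KLA, elements 1, 6, 10, 12 and 15 had a peak only in C57BL/6, 5 of 10 elements (background 45.3%). The value past 2 was JunD after KLA at element 16, with counts of 157 in C57BL/6 and 76 in BALB/cJ and a relative ratio of 2.43 (1.85 to 3.20), at percentile 99.7 of shared loci (background 1.15% at least 2). The C57BL/6 count was at percentile 11.7 of a list whose lowest count was 120. Element 16 also had ATF3, Fos and JunB KLA peaks and a JunD Veh peak in BALB/cJ that C57BL/6 did not have, as did 19.2%, 43.4%, 45.3% and 41.2% of the loci of these pairs. Toward C57BL/6 the lowest value was JunD after KLA at element 14, 0.577 (0.433 to 0.768).

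In Veh, ATF3 and JunD had a peak at the Cxcl10 promoter in C57BL/6, and no AP-1 monomer did in BALB/cJ. Such a peak only in C57BL/6 was common, at 30.5% of ATF3 Veh loci and 14.3% of JunD Veh loci, and was found in the window at 1 of 8 and 2 of 8. The C57BL/6 peaks were in the lower part of their lists, at percentiles 40.7 and 24.6. For Jun in Veh, C57BL/6 had peaks at elements 6, 12, 14 and 15 and BALB/cJ only at element 13, so that none was shared (background 42.2% only in C57BL/6 and 18.0% only in BALB/cJ). Element 11 had no BALB/cJ peak (background 19.0% for ATF3 and 6.02% for Fos only in C57BL/6). Of the KLA lists, element 1 had ATF3, JunD and Fos peaks only in BALB/cJ and a Jun peak only in C57BL/6, and element 9 had ATF3, Jun and Fos peaks only in BALB/cJ and JunD peaks in both. Over all loci of these KLA pairs, 19.2% for ATF3, 43.4% for Fos, 24.8% for JunD and 15.5% for Jun were found only in BALB/cJ. The Jun Veh lists held 15548 peaks in C57BL/6 and 10957 in BALB/cJ.

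In PPARgKO Veh, Jun had no peak in the window. The wild type Jun Veh peaks at elements 6, 12, 14 and 15 were all missing from the PPARgKO list, which held 4290 peaks against 15548, and 73.9% of all loci of the pair were likewise found only in the wild type. For ATF3 all 6 wild type peaks were also found in PPARgKO (background 15.1% of loci only in the wild type), with relative ratios from 0.971 at the Cxcl10 promoter to 1.47 at element 5. The PPARgKO list added peaks at elements 2, 14 and 15 (background 30.6% only in PPARgKO). For JunD 3 of 4 wild type peaks were found, from 0.763 at element 12 to 1.33 at the Cxcl10 promoter, and element 10 was found only in the wild type (32.1%) and element 13 only in PPARgKO (31.0%). None of the 9 values was past 2-fold (background 0.192% higher and 0.479% lower), and each interval included 1, whereas 10.9% of shared loci had one that excluded it. PPARg itself had peaks at elements 1, 4, 8 and 12, of which only element 12 also had a wild type Jun Veh peak.

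The genes around the chemokines were read in the same way at their starts. Of 23 genes for CXCR3, its ligand-trimming peptidase Dpp4, the interferon receptors and their JAK, STAT and IRF partners, TLR4 with its TRIF arm, and NF-kB, 17 had a C57BL/6 AP-1 peak after KLA within 1 kb of a start (background 28.2% of protein-coding genes). Of these 14 also had one in Veh, and 3 did not, Irf9, Ticam2 and Ifnb1 (background 23.9% of protein-coding genes with a KLA peak there). Counted within 5 kb of a start, 2 of the 23 genes had a peak only after KLA. The background at that distance was 20.5% of protein-coding genes with a KLA peak. That base is narrower than all 23 genes, so these shares cannot be compared. Irf9 encodes the DNA-binding subunit of the interferon-induced ISGF3 complex, Ticam2 an adaptor of TLR4 and Ifnb1 the cytokine interferon beta. Nfkb1, Jak2, Tlr4, Tbk1 and Nfkbia had peaks of all 6 monomers after KLA, as Cxcl10 did. Ifnar2 and Irf8 had Veh peaks only, and Cxcr3, Dpp4, Irf3 and Irf7 none. Of the members, Cxcl10 had peaks in both treatments, Cxcl11 only after KLA and Cxcl9 none. The Cxcl11 peaks were those of element 11 at its inner start, 2.10 kb downstream of the outer start. No element was centred within 1 kb of the outer start, and element 12, 3.11 kb upstream of it, had Veh peaks.

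Set beside other chemokine clusters, the window was less dense in elements. It held 19.0 elements per 100 kb, against 28.2 around the neutrophil-attracting Cxcl genes (Cxcl1, Cxcl2, Cxcl3, Cxcl5, Cxcl15, Ppbp and Pf4) and 24.8 around the 11 Ccl genes of chromosome 11. Elements with C57BL/6 AP-1 only after KLA made up 33.3%, 56.0% and 55.0% of the elements with such a peak (background 38.0%). The KLA to Veh ratio of peaks was 3.36, 3.81 and 3.28. The median percentile in Veh was 32.7 here and 60.9 and 59.4 there, and after KLA 68.3, 62.4 and 65.3. The difference in Veh was not tested, and the clusters differ in size.

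Over the 29 lists with peaks, the protein-coding genes whose highest percentile per list was most like that of the window, among 11913 genes compared, were Tnfsf9 (Pearson r = 0.970), Ptpn5 (0.966), Pag1 (0.962), Bhlhe40 (0.960) and Dclre1b (0.957). The median over all genes compared was 0.507, and the points are lists that share cells, antibodies and depth. Tnfsf9 encodes the ligand of 4-1BB, and Bhlhe40 a transcription factor of macrophages and lymphocytes.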

How the data were processed

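ChIP-seq peak lists of 30 conditions were used, and 4 inputs without a list were not analysed. Reads had been aligned by the authors with Bowtie2, those of BALB/cJ to a genome of that strain whose positions were then shifted to mm10, and peaks were called with HOMER against input. They kept peaks with an IDR below 0.05 over replicate experiments. The count of each peak is as deposited, is not scaled to library size, and how replicate counts were combined is not given in the sources used here. The deposited score is the scaled IDR, at its highest value of 1000 for 59.9% of peaks, and was used only as an alternative for ranks. Whether start positions count from 0 or 1 is not given in the sources used here, and they were printed as in the lists.

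Python 3.11.15 with pandas 2.3.3, numpy 2.4.6, scipy 1.17.1, pysam 0.24.0 and matplotlib 3.10.9 computed every value, with GENCODE M21 for genes. The scripts were tested on simulated data. Peaks overlapping by 1 bp were joined into elements. No test was made between conditions, and intervals (95%, Wilson) cover counting error only. Calls were set at 2-fold. Elements found in at least 5 lists are described one by one, with the peaks of some lists left to the map of peaks. The others are given by their values, and the 5 most similar genes are named. The members, gene lists and motifs were chosen with earlier results of these data known. Alternatives were the overlap rule, flanks of 5 kb and 50 kb, the stronger 50% of peaks, other references for the relative ratio, ranks by score, and the motif window and mismatches.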

Additional observations from a re-analysis of the deposited data

How the results depend on the processing

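The direction was kept by 85 of 85 relative ratios with each of 3 other references, and by 83 of 83 that could be matched within 100 bp of midpoints. The side of the 2-fold threshold was not kept by all. KLA to Veh values of at least 2 numbered 13 with the median over loci at least 3 kb from an annotated start, against 12. Among the ratios matched within 100 bp of midpoints they numbered 11. The number of elements was 18 with midpoints within 100 bp, 17 with 50% reciprocal overlap, 12 with flanks of 5 kb and 23 with flanks of 50 kb, against 16. Other counts moved. Elements with C57BL/6 AP-1 only after KLA numbered 2 with flanks of 5 kb, since elements 1 and 16 then fall outside, 6 with flanks of 50 kb, 6 in the stronger 50% of each list and 5 with BALB/cJ lists too, against 4. As shares of the elements with such a peak these were 25.0%, 37.5%, 66.7% and 35.7%, against 33.3%. The stronger 50% of each list left 96 peaks by construction. Ranked by score, 0 of the 13 peaks at or above percentile 90 stayed there, as 59.9% of all peaks share the highest score. Motif matches over the 11 elements found in at least 5 lists, counted once per element and motif, came to 12 in the central 200 bases, 4 in the central 100 bases and 36 with 1 mismatch. Of the 5 most similar genes, 2 were kept with a Jaccard index and 2 with flanks of 5 kb, so these names depend on the measure. No paired analysis was possible because each condition has 1 list with no replicate number, and no replicate could be left out. With no replicates, the intervals understate the error of every ratio, and the shallow lists (9 peaks for BALB/cJ JunB Veh) limit what an absent peak shows.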

Other observations

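The peak midpoints give some detail on where within an element each factor was called. At element 6 the PU.1 midpoints in Veh and KLA lay 213 and 212 bp from the median AP-1 midpoint, on the side of the Art3 start, whereas PU.1 was 1.0 bp from it at the Cxcl10 promoter and 3.5 and 27.0 bp from it at element 10. Relative to the centre of the TRE in the Cxcl10 promoter, the ATF3 and JunD Veh midpoints lay 24.0 and 40.0 bp upstream in C57BL/6, and those of PPARgKO within 1.5 bp. After KLA the ATF3 and JunD midpoints lay 87.0 and 65.5 bp upstream in C57BL/6 and 57.5 and 74.5 bp upstream in BALB/cJ, where there was no Veh peak. The shift between Veh and KLA was 63.0 bp for ATF3, a size reached at 8.05% of shared loci, and 25.5 bp for JunD, which 42.1% of shared loci reached. At element 12 the C57BL/6 shifts were 1.5 bp for ATF3, 4.0 bp for JunD and 85.0 bp for Jun, the last a size reached at 8.47% of shared loci, and in BALB/cJ they were 28.5 bp for ATF3 and 8.0 bp for JunD. The positions come from peaks joined over replicate experiments, and no error could be set on them.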
